A study of Mus musculus with 7 samples.

Results

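Calb1 encodes calbindin, a cytosolic protein with EF-hand calcium-binding sites, and its transcript was followed here from a collecting duct cell line to the embryonic tissues of the kidney. All 4 probe sets whose array annotation lists Calb1 alone were taken, out of 45037 probe sets that are not controls and 18193 genes with a probe set of their own. The gene was singled out because earlier results of these arrays ranked it among the largest differences between ureteric bud and mesenchyme, so its levels and differences are given as a description, with no test. RNA of 4 groups had been hybridised to 7 Affymetrix mouse arrays. One array held a freshly isolated subclone of mIMCD-3, a cell line of the mouse inner medullary collecting duct, grown until confluent. Microdissected E12.5 mouse kidneys gave 2 biological replicate arrays each of ureteric bud tip, ureteric bud stalk and metanephric mesenchyme. No genotype, treatment or strain is given in the labels. Whether each replicate pooled several embryos is not given in the sources used here, so spreads and p-values measure the difference between these samples.

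Calbindin buffers calcium and carries it through the cytosol. In the adult kidney it is found in the distal convoluted and connecting tubules, where calcium enters through apical TRPV channels, crosses the cell bound to calbindin and leaves through the basolateral sodium-calcium exchanger and calcium pumps. In the embryonic mouse kidney calbindin is widely used as a marker of the ureteric bud, the epithelial tube that branches into the metanephric mesenchyme and gives rise to the collecting ducts. Some neurons are also rich in calbindin.

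The dissections carried markers of bud and mesenchyme as labelled, with other cell types in unequal amounts. The list of stalk markers hardly set stalk apart from tip. Of 11 measured bud markers, 10 were higher in tip than in mesenchyme and 10 in stalk than in mesenchyme, and 0 were lower (limma, adjusted p under 0.05). Of all genes, 7.38% were higher and 8.37% lower in tip than in mesenchyme, and 4.3% were higher and 1.24% lower in stalk than in mesenchyme. The exception in both was Hoxb7, at 3.86 to 4.24 on all 7 arrays. Of 8 nephron progenitor markers, 7 were lower in tip than in mesenchyme and 7 in stalk, and 0 were higher. Of 7 tip markers, 6 were higher in tip than in stalk and 0 lower, where 2.86% of all genes were higher and 6.97% lower. Of 7 stalk markers, 0 were higher in tip than in stalk and 1, Shh, was lower. The intensities of 7 renal stroma markers summed to 1438 and 1092 in tip, 12729 and 12035 in stalk and 11826 and 11151 in mesenchyme, so the stalk dissections carried about as much stromal signal as the mesenchyme. In mIMCD-3 the epithelial markers Cdh1 (10.88), Epcam (10.79), Krt8 (12.31) and Krt18 (12.01) were bright on the log2 scale. The water channel gene Aqp2, which marks principal cells of the collecting duct, lay at 5.15 there and at 4.88 to 5.49 in the tissues. The collecting duct markers Cdh16 (9.42) and Elf3 (9.24) were bright in mIMCD-3, while Aqp3, Aqp4, Scnn1b, Scnn1g and Hsd11b2 were about as dim as Aqp2. Of 11 collecting duct markers, 1 was at least 1 log2 unit higher in mIMCD-3 than in the bud and 4 at least 1 lower. Of all genes, 9.75% were that much higher and 9.33% that much lower. RMA, the normalisation behind the deposited values, gives no detection calls. Background was therefore read from 78 probe sets that list a single olfactory or vomeronasal receptor gene, whose median was 3.58 to 4.03 and whose 95th percentile was 5.45 to 6.05 across the 7 arrays.

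The brightest Calb1 probe set, 1417504_at, was at background in the cell line, near the top of the array in the bud, and in mesenchyme above the median of the receptor probe sets on both arrays but above their 95th percentile on 1 only. Its log2 intensity was 3.38 in mIMCD-3, 13.67 and 13.62 in tip, 12.54 and 12.53 in stalk, and 6.26 and 5.56 in mesenchyme. On the linear scale as deposited, these values were 10.4 in mIMCD-3, 13079 and 12623 in tip, 5948 and 5899 in stalk, and 76.6 and 47.3 in mesenchyme. The arrays of the 4 groups did not overlap and ran in the order tip, stalk, mesenchyme and mIMCD-3. Replicates of tip differed by 0.05 and those of stalk by 0.01, against 0.70 between the mesenchyme arrays, so the low end of the order was the least precise. On the tip arrays 52 and 59 probe sets were brighter than this one. On the stalk arrays 321 and 313 were brighter.

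Tip stood 7.74 log2 units above mesenchyme in this probe set, with group means of 13.65 ± 0.04 in tip and 5.91 ± 0.49 in mesenchyme (SD, n = 2 each). The 4 differences between single arrays ran from 7.36 to 8.11. Stalk, with a mean of 12.53 ± 0.01 (SD, n = 2), stood 6.62 above mesenchyme, with single differences of 6.27 to 6.97. Among 18193 genes, each represented by its brightest probe set, Calb1 had the largest value for tip against mesenchyme and ranked 2 for stalk against mesenchyme. Its choice rested on these same contrasts.

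The tip exceeded the stalk in every Calb1 probe set, but only 3 of the 4 were above the receptors' 95th percentile in both. Probe set 1417504_at was 1.12 higher in tip than in stalk, which is 2.17-fold. Probe set 1456934_at was 1.55 higher and 1448738_at 1.5 higher. The array pairs closest to each other still differed by 1.09, 1.28 and 1.34 in these 3 probe sets, more than the 0.40 that was the largest gap between replicates of tip or stalk in them. The fourth, 1458836_at, was 0.48 higher, with all its values below that percentile. Its closest arrays of tip and stalk differed by 0.31, no more than its tip replicates did (0.31).

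**Figure D1:**
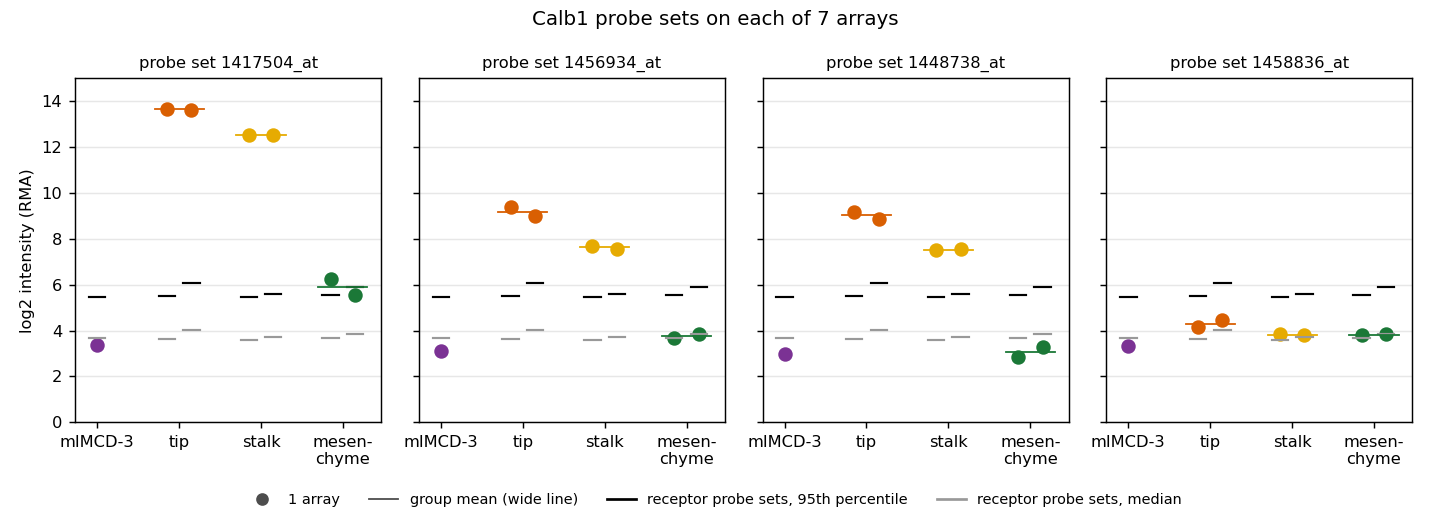
Log2 RMA intensity (vertical axis) of the 4 Calb1 probe sets on each array, by group (horizontal axis); circles are single arrays, wide coloured lines group means, and short grey and black lines the median and 95th percentile of 78 receptor probe sets on the same array. In 3 of the 4 panels the groups run in the order tip, stalk, mesenchyme, and in the panel of 1458836_at all 7 arrays lie between 3.34 and 4.46.

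In 1456934_at and 1448738_at the tissues ran in the same order, with mesenchyme at background. Probe set 1456934_at read 3.10 in mIMCD-3, 9.39 and 8.99 in tip, 7.71 and 7.57 in stalk, and 3.66 and 3.86 in mesenchyme. Probe set 1448738_at read 2.97 in mIMCD-3, 9.17 and 8.89 in tip, 7.51 and 7.55 in stalk, and 2.86 and 3.29 in mesenchyme. In both, tip lay above stalk and stalk above mesenchyme without overlap, and the mesenchyme arrays fell in the lower quartile of all probe sets. The log2 difference of tip against mesenchyme was 5.43 in 1456934_at and 5.96 in 1448738_at. That of stalk against mesenchyme was 3.88 in 1456934_at and 4.46 in 1448738_at. Since the mesenchyme values are at background, the sizes are uncertain: with values under the receptors' 95th percentile raised to it, tip exceeded mesenchyme by 3.47 in 1456934_at and 3.30 in 1448738_at, and stalk exceeded it by 1.91 in 1456934_at and 1.80 in 1448738_at. Thus 3 of the 4 probe sets had the arrays of tip above stalk above mesenchyme with no overlap, an arrangement that 7.07% of all 18193 genes showed. The comparisons behind this count are those the gene was chosen on. The brightness of one probe set cannot be set against that of another, since it also depends on the probes, and 1417504_at and 1448738_at are annotated to the same transcript accession.

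The fourth probe set, 1458836_at, did not separate stalk from mesenchyme. It read 3.34 in mIMCD-3, 4.15 and 4.46 in tip, 3.84 and 3.80 in stalk, and 3.81 and 3.84 in mesenchyme. Each of these values lay below the 95th percentile of the receptor probe sets of its array. Both tip arrays were above the other 5, the stalk and mesenchyme arrays overlapped, and mIMCD-3 was lowest. Such disagreement was not particular to Calb1. Of 27 genes with more than 1 probe set whose brightest stood at least 4 log2 units higher in tip than in mesenchyme, 7 (25.9%) had another probe set that differed by less than 1.

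Whether mesenchyme held any Calb1 transcript depended on the probe set and the array. In 1417504_at, mesenchyme replicate 1 (6.26) exceeded 77 of the 78 receptor probe sets and replicate 2 (5.56) exceeded 70. In 1456934_at each mesenchyme array exceeded 39 of 78, and in 1448738_at they exceeded 7 and 18. The 2 replicates also changed places. Replicate 1 was 0.70 above replicate 2 in 1417504_at, and 0.43 and 0.20 below it in 1448738_at and 1456934_at. Bud markers in the same 2 arrays summed to 550 in replicate 1 and 491 in replicate 2, against 12289 to 22229 in the 4 bud arrays. Cdh1, the gene of E-cadherin, which defines the bud epithelium, averaged 3.84 there and lay below the lower quartile of each array. The part of bud cells in the mesenchyme value was not tested.

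Calb1 was at background in the collecting duct line by every probe set. Probe set 1458836_at was below the receptors' 95th percentile on the tissue arrays as well, so its reading does not set the line apart. The 4 readings of 2.97 to 3.38 in mIMCD-3 lay below the lower quartile of that array (3.99), and between 13 and 30 of the 78 receptor probe sets were dimmer. In 1417504_at the log2 difference between the cell line and the bud, taken as the average of the tip and stalk means, was -9.71, the second lowest of 18193 genes. With values under the receptors' 95th percentile raised to it, the difference was -7.64, which is the more cautious size because a value at background is only an upper limit. The probe sets 1456934_at and 1448738_at both gave -5.31, and 1458836_at gave -0.72. Across all genes 9.33% lay at least 1 log2 unit below the bud in mIMCD-3. Against mesenchyme, mIMCD-3 was lower than both arrays in 1417504_at, with a mean log2 difference of -2.54. There mIMCD-3 and mesenchyme replicate 2 were below the receptors' 95th percentile, and with values raised to it the difference was -0.63. In the other 3 probe sets both groups lay below the receptors' 95th percentile, so no order between them was read. The single mIMCD-3 array was added to tissue arrays published before, so cell line and batch cannot be told apart, and no test was made.

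Several epithelial markers of the bud were as bright in mIMCD-3 as in the bud. Krt8 and Krt18, the keratin genes of simple epithelia, stood 0.63 and 0.65 above the bud mean in mIMCD-3, and Cdh1 stood 0.13 above it. Epcam differed by -1.13. Some bud regulators lay at background in the line, as Calb1 did, while Emx2 and Tfcp2l1 stayed above it. Ret, whose product is the GDNF receptor of the bud tip, differed from the bud by -5.68, Gata3, a duct transcription factor gene, by -4.27 and Lhx1, another, by -4.13. All 3 were below the receptors' 95th percentile in mIMCD-3. With values raised to it, the differences were -4.34 for Ret, -3.30 for Gata3 and -3.03 for Lhx1. Emx2 and Tfcp2l1 were above that percentile in mIMCD-3 and differed from the bud by -1.08 and -2.75. Wnt9b was below it, as was Hoxb7, which was dim in the tissues too. In all, 7 of 11 bud markers were at least 1 log2 unit lower in mIMCD-3 than in bud and 0 were that much higher, where 9.75% of all genes were at least 1 higher.

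**Figure D2:**
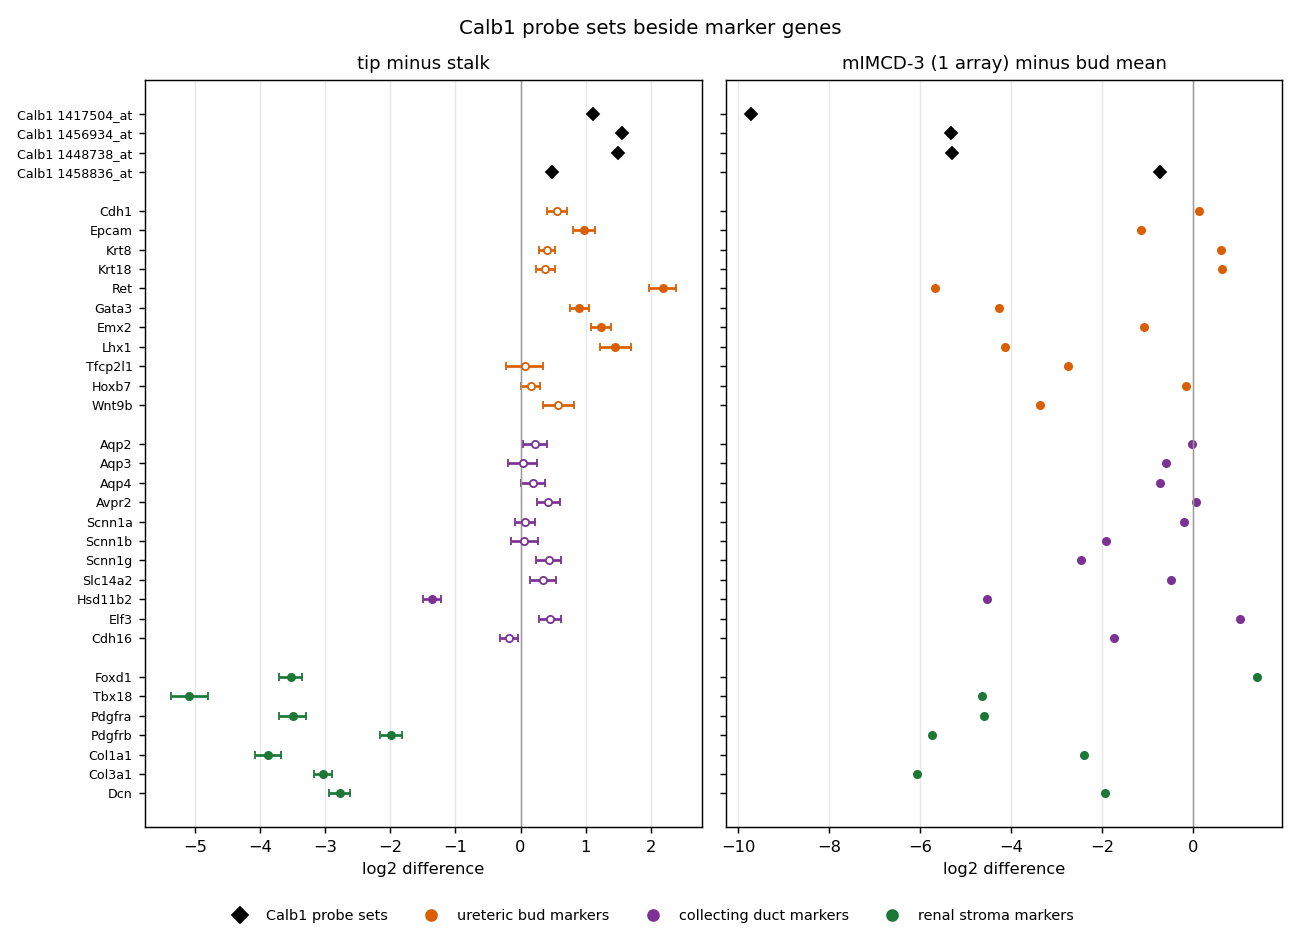
Log2 differences (horizontal axes) of tip minus stalk (left) and of mIMCD-3 minus the bud mean (right) for the 4 Calb1 probe sets (diamonds) and for markers of ureteric bud, collecting duct and renal stroma (circles); on the left, bars are limma standard errors and filled circles passed an adjusted p under 0.05. Calb1 lies among the bud markers on the left, and on the right its brightest probe set, at -9.71, lies lower than every marker shown.

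Between tip and stalk, the Calb1 difference was within the range of other bud genes. Of the 11 bud markers, 5 were higher in tip and 0 lower, where 2.86% of all genes were higher and 6.97% lower. Ret (2.18 ± 0.21; adjusted p = 0.000599), Lhx1 (1.46 ± 0.24) and Emx2, a bud transcription factor gene (1.24 ± 0.16), had larger differences than the 1.12 of 1417504_at (limma, log2 difference ± SE). Of these, Ret alone exceeded the 1.55 of 1456934_at and the 1.5 of 1448738_at. Epcam (0.98 ± 0.17) and Gata3 (0.91 ± 0.14) were higher as well. Cdh1, at 0.56 ± 0.15, did not pass (adjusted p = 0.0574), and Krt8, at 0.40 ± 0.12, did not either. In the same comparison all 7 stroma markers were lower in tip, with log2 differences of -5.09 to -1.99 and a median of -3.50, against 0.07 over all genes. A smaller share of bud cells in the stalk dissections and less Calb1 RNA per bud cell cannot be told apart in these bulk samples, and the part of stroma in the difference was not tested.

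Markers of neurons, some of which also contain calbindin, were measured on the same arrays. Of 7 measured markers of neurons and neural crest, 0 were higher and 3 lower in tip than in mesenchyme, where 7.38% of all genes were higher and 8.37% lower. Their summed intensity was 193 in mIMCD-3, 392 and 385 in tip, 526 and 502 in stalk, and 757 and 726 in mesenchyme. The part of neurons in the Calb1 values was not tested. Elavl4, among the 3 lower in tip, encodes a neuronal RNA-binding protein and read 4.19 and 4.07 in tip, against 6.49 and 6.17 in mesenchyme. Elavl3, Tubb3, Sox10 and Snap25 passed in neither direction, and Tubb3 averaged 5.48 in tip against 5.09 in mesenchyme.

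Cldn6, Pou3f3 and Ret had the profiles nearest to that of Calb1 over the 7 arrays. Likeness was the root mean square of the difference between the log2 values of a gene and those of 1417504_at, each centred on its own mean. It was 1.27 for Cldn6 and 1.63 for Cldn8, both claudin genes of tight junctions. It was 1.36 for Pou3f3, a transcription factor gene, 1.58 for Ret and 1.73 for Frem2, which encodes an extracellular matrix protein of embryonic epithelia. Dcdc2a (1.91), ccdc198 (1.97) and Wfdc15b (1.97) completed the nearest 8. The median over the other 18192 genes was 4.08, and 1% of them came below 3.16. These distances describe 7 arrays in 4 groups, 1 of which is a different kind of sample.

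None of the 8 matched the full span of the brightest Calb1 probe set. Their differences of tip against mesenchyme ran from 4.39 to 6.46, compared with 7.74 in that probe set. Those of mIMCD-3 against bud ran from -6.47 to -4.42, compared with -9.71. The gene was chosen on its difference between bud and mesenchyme. Probe sets 1456934_at and 1448738_at lay within both ranges. They gave 5.43 and 5.96 for tip against mesenchyme, and both gave -5.31 for mIMCD-3 against bud. Probe set 1458836_at fell short of both ranges, at 0.48 and -0.72. Cldn6 read 4.74 in mIMCD-3, 11.63 and 11.45 in tip, 10.54 and 10.72 in stalk, and 6.01 and 5.57 in mesenchyme, in the same order of groups as Calb1. Pou3f3 read 3.96 in mIMCD-3, 10.97 and 10.81 in tip, 9.55 and 9.42 in stalk, and 5.25 and 5.08 in mesenchyme. Cldn8 departed from the order. It read 6.54 in mIMCD-3, above the 5.25 and 5.06 of mesenchyme, and its tip arrays (11.67 and 11.56) overlapped its stalk arrays (11.56 and 11.59). In the other 7 genes both tip arrays exceeded both stalk arrays. Of the 3 that have more than 1 probe set, Pou3f3 and Ret had another with a difference over 1 between tip and mesenchyme, and Dcdc2a did not.

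By Pearson correlation over the same arrays, among 1212 genes with a standard deviation of at least 1, Cldn6 (r = 0.997), Plet1 (0.994), Pou3f3 (0.994), Ldoc1 (0.993) and Jag1 (0.991), a Notch ligand gene, were the closest. Ldoc1 and Jag1 followed the shape with a smaller span, at 1.91 and 2.02 for tip against mesenchyme. The choice of arrays and measure decided most of the names. With the 6 tissue arrays alone, the nearest 8 shared 2 genes with the list above, and with 1456934_at as the pattern they shared 6.

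**Figure D3:**
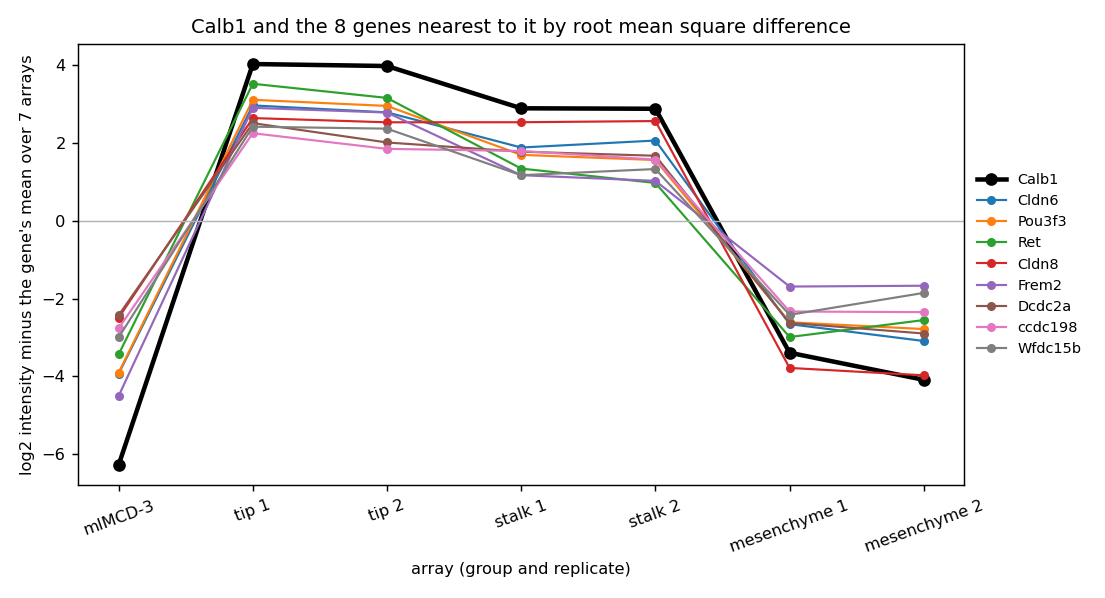
Log2 intensity minus the mean of the gene over the 7 arrays (vertical axis) for Calb1 (black, probe set 1417504_at) and the 8 genes nearest to it, on each array (horizontal axis). Calb1 has the widest span of the lines, and Cldn8 alone has stalk level with tip.

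Other genes of calcium handling were called in both directions, at shares near those of all genes. Of 67 listed genes besides Calb1, 60 were measured. In tip against mesenchyme 6 of the 60 were higher and 7 lower, where 7.38% of all genes were higher and 8.37% lower. The median log2 difference of the 60 was -0.02, against 0.01 over all genes. In stalk against mesenchyme 4 were higher and 1 lower, where 4.3% of all genes were higher and 1.24% lower. In tip against stalk 1 was higher and 5 lower, where 2.86% of all genes were higher and 6.97% lower. Fitted with a term for the replicate number (a block), the counts higher and lower were 8 and 11 in tip against mesenchyme, 8 and 3 in stalk against mesenchyme, and 4 and 8 in tip against stalk. Under that block the shares of all genes higher and lower were 11.2% and 12.8% in tip against mesenchyme, 6.77% and 3.17% in stalk against mesenchyme, and 8.92% and 11.7% in tip against stalk.

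Among cytosolic EF-hand buffers other than Calb1, 0 of 4 measured genes passed in any of the 3 tissue comparisons by limma, and 0 had an unadjusted p under 0.05. Between 1.24% and 8.37% of all genes passed in each direction of a comparison, so 0 of 4 was near the share of all genes. With the block, 0 passed as well. Calb2, the gene of calretinin and the nearest relative of Calb1, read 6.25 in mIMCD-3, 6.50 and 6.93 in tip, 6.24 and 6.55 in stalk, and 6.59 and 6.86 in mesenchyme. Its groups overlapped, and the difference of tip against mesenchyme was -0.01 ± 0.20 (SE). Scgn, which encodes secretagogin, had a difference of 0.20 and Pvalb, the parvalbumin gene, one of 0.23. S100g encodes the small calbindin of intestine and kidney, and read 3.86 in mIMCD-3, 3.54 and 3.33 in tip, 3.44 and 3.21 in stalk, and 3.25 and 3.37 in mesenchyme, all below the 95th percentile of the receptor probe sets.

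Of 18 measured genes of transcellular calcium transport, 2 were higher and 6 lower in tip than in mesenchyme, with a median of -0.12, where 7.38% of all genes were higher and 8.37% lower. In stalk 2 were higher and 1 lower, where 4.3% of all genes were higher and 1.24% lower. Slc8a1, which encodes the sodium-calcium exchanger NCX1, read 3.65 in mIMCD-3, 7.56 and 6.82 in tip, 7.72 and 7.79 in stalk, and 5.18 and 4.73 in mesenchyme. Both parts of the bud were above mesenchyme without overlap, by 2.23 ± 0.25 in tip (adjusted p = 0.000657) and 2.80 ± 0.25 in stalk (adjusted p = 0.000616). The 3 dimmer Slc8a1 probe sets gave 0.28 to 0.47 in tip and 0.17 to 0.82 in stalk. The second gene higher in tip was Trpv6, which encodes an apical calcium channel and is named here after its values were seen. It read 5.21 in mIMCD-3, 6.05 and 6.50 in tip, 5.77 and 5.78 in stalk, and 5.24 and 5.29 in mesenchyme (tip against mesenchyme 1.01 ± 0.17; adjusted p = 0.00469). In stalk its difference of 0.51 ± 0.17 did not pass, and its mesenchyme arrays were below the 95th percentile of the receptor probe sets.

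The calcium pump gene Atp2b1 was 0.69 ± 0.16 higher in stalk than in mesenchyme (adjusted p = 0.0489), a call that was lost without any 1 of the 4 arrays compared (adjusted p = 0.0730 to 0.326), and with all probe sets in the fit (adjusted p = 0.0753) or averaged per gene (adjusted p = 0.0836). Its difference in tip was 0.36 ± 0.16 and passed only with the block. Among the 6 transport genes lower in tip than in mesenchyme were S100a10, Anxa2, Sgk1, Pth1r and Wnk4. S100a10 and Anxa2, whose products form a complex that brings TRPV channels to the membrane, differed by -2.37 ± 0.14 and -1.99 ± 0.13 between tip and mesenchyme. Their probe sets disagreed in size: the other 2 of S100a10 gave -2.58 and -0.16, and those of Anxa2 gave -0.31 and -0.11. Sgk1, a kinase gene that responds to mineralocorticoids, had -2.10 ± 0.19. These 3 genes were also lower in tip than in stalk, as was Pth1r, the receptor gene for parathyroid hormone (-1.85 ± 0.18), and none of the 4 passed between stalk and mesenchyme. The stroma sum given above was lowest in tip as well, at 1438 and 1092, and its part in these 4 genes was not tested. Wnk4, a kinase gene of the distal nephron, differed from mesenchyme by -0.91 in tip and -0.61 in stalk. The stalk call (adjusted p = 0.0403) was lost without any 1 of its 4 arrays, at adjusted p = 0.134 to 0.365.

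Among 11 calcium sensor genes, 3 were higher and 0 lower in tip than in mesenchyme, where 7.38% of all genes were higher and 8.37% lower. Vsnl1, which encodes the neuronal calcium sensor VILIP-1, was the single gene of the 60 that limma called higher in all 3 tissue comparisons. It read 6.48 in mIMCD-3, 9.05 and 8.97 in tip, 7.10 and 7.12 in stalk, and 5.54 and 5.98 in mesenchyme. The tissue groups did not overlap, and Vsnl1 was 3.25 ± 0.16 higher in tip (adjusted p = 1.21e-05) and 1.35 ± 0.16 higher in stalk than in mesenchyme, and 1.90 ± 0.16 higher in tip than in stalk (adjusted p = 0.000343). Its second probe set gave 5.69 for tip and 3.31 for stalk against mesenchyme. Unlike Calb1, its mIMCD-3 value lay above both mesenchyme arrays. Hpcal1 and Hpcal4, which encode sensors of the same family, were 0.81 ± 0.12 and 0.63 ± 0.12 higher in tip than in mesenchyme. Hpcal4 was dim, at 3.71 and 3.66 in tip against a mean of 3.05 in mesenchyme, all arrays below the 95th percentile of the receptor probe sets, and its call was lost without mesenchyme replicate 2 (adjusted p = 0.0850).

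Of 18 genes of calcium stores and entry, Itpr3 alone passed between bud and mesenchyme. Of all genes, 7.38% were higher and 8.37% lower in tip than in mesenchyme, and 4.3% higher and 1.24% lower in stalk, so the count was not above these shares. It encodes an inositol trisphosphate receptor, a calcium release channel, and read 7.90 in mIMCD-3, 8.72 and 8.68 in tip, 8.42 and 8.27 in stalk, and 6.09 and 6.41 in mesenchyme. It was 2.45 ± 0.15 higher in tip (adjusted p = 2.55e-05) and 2.10 ± 0.15 higher in stalk (adjusted p = 0.000175). In mIMCD-3 it remained closer to the bud than to the mesenchyme.

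Vitamin D signalling raises calbindin in the intestine of the chick. Of 8 measured genes of vitamin D signalling, 0 passed in any tissue comparison by limma, 2, 1 and 2 had an unadjusted p under 0.05 in tip against mesenchyme, stalk against mesenchyme and tip against stalk, and with the block 1, 1 and 2 passed. Between 1.24% and 8.37% of all genes passed in each direction of a comparison, and between 3.17% and 12.8% with the block. The vitamin D counts were near these shares. The receptor gene Vdr read 4.49 in mIMCD-3, 4.58 and 5.26 in tip, 4.50 and 4.63 in stalk, and 4.89 and 5.02 in mesenchyme, all below the 95th percentile of the receptor probe sets. Of 2 measured genes whose products bind calbindin, 1 passed, as lower in tip than in mesenchyme, where 8.37% of all genes were lower. Impa1, the gene of an inositol monophosphatase that calbindin activates, read 11.31 in mIMCD-3, 9.90 and 9.68 in tip, 10.05 and 10.05 in stalk, and 9.96 and 9.89 in mesenchyme, and did not pass between tissues. Ranbp9 differed by -0.76 ± 0.17 between tip and mesenchyme (adjusted p = 0.0204), a call lost without mesenchyme replicate 1 (adjusted p = 0.124) or tip replicate 2 (adjusted p = 0.0567).

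**Figure D4:**
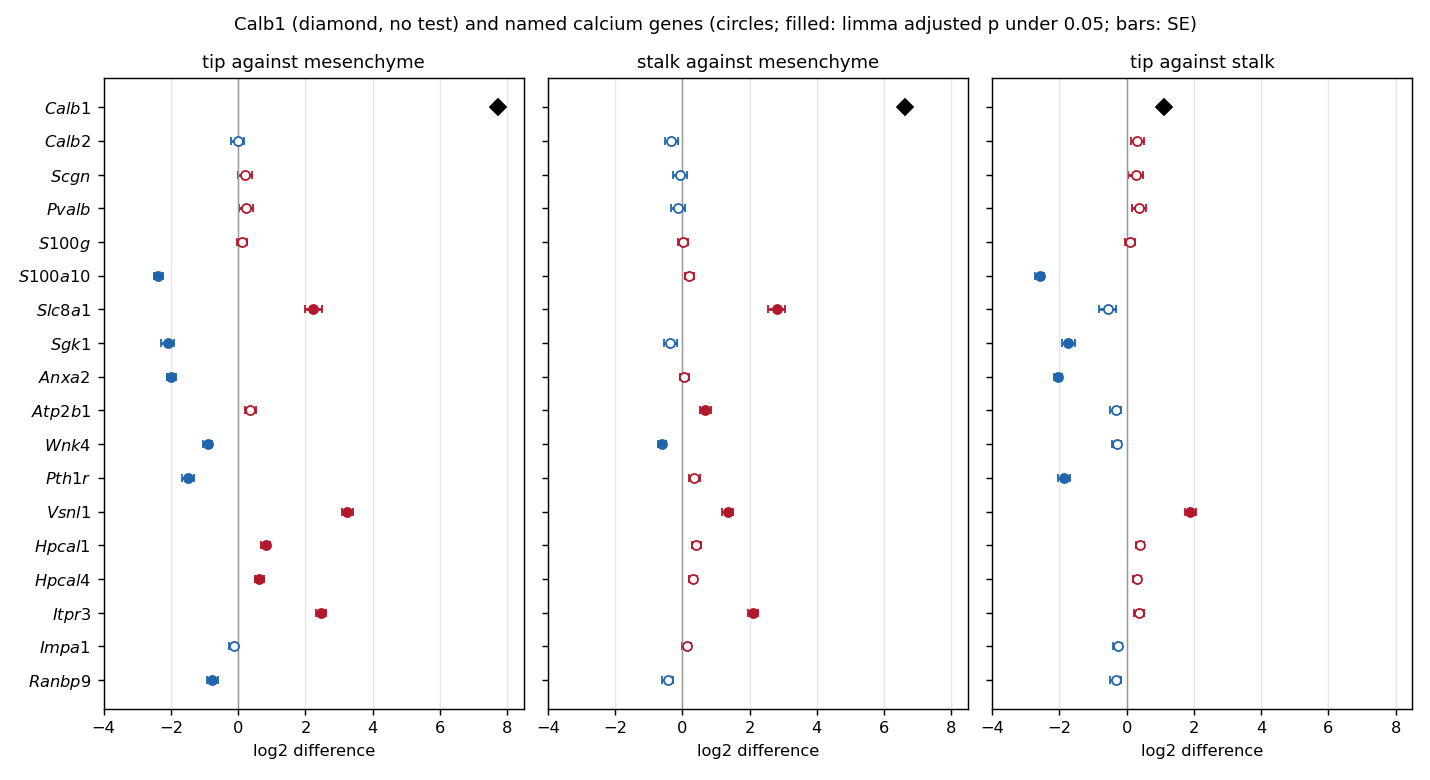
Log2 differences (horizontal axes) of tip against mesenchyme, stalk against mesenchyme and tip against stalk for Calb1 (diamond, brightest probe set, not tested) and 17 named calcium genes (circles with limma standard errors; filled circles passed an adjusted p under 0.05). Calb1 lies at 7.74 and 6.62 in the first 2 panels, and Vsnl1 at 3.25 is the next highest in tip against mesenchyme.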

How the data were processed

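The authors deposited intensity values on a linear scale, from 5.08 to 19587, recalculated by robust multichip analysis (RMA) over all 7 arrays together per the series design text; RMA is also named in the submitters' processing notes, and its software and version are not given in the sources used here. RMA subtracts background, equalises the arrays and summarises each probe set, and it compresses differences of dim probe sets. Values were converted to log2. A gene was read from its brightest probe set over the 7 arrays; 34945 probe sets list exactly 1 gene. The 6 tissue arrays entered 1 limma 3.58.1 fit (R 4.3.3; 3 residual degrees of freedom; two-sided; Benjamini-Hochberg over 18193 genes; adjusted p under 0.05), which was tested on simulated data. mIMCD-3 has 1 array and entered no test. The number of arrays limits the precision.

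The members, lists and tests were chosen with earlier results of these data known. Named genes are all Calb1 probe sets, all measured EF-hand buffers and calbindin partners, up to 4 called members of each other calcium list per comparison, the 8 nearest genes and the 5 by Pearson correlation. Alternatives were a replicate block, each array left out, 2-group fits, trend and robust variance, all probe sets, probe set means, no dim genes and median centring. Arrays of one replicate number deviated together, although the labels state no pairing: their deviations from the group means had correlations over probe sets of 0.57 for tip with mesenchyme, 0.39 for stalk with mesenchyme and 0.43 for tip with stalk. Listed genes without a probe set of their own were not analysed here. Figures used matplotlib 3.10.9 in Python 3.11.15.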

Additional observations from a re-analysis of the deposited data

How the results depend on the processing

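Calb1 differences depended on the probe set more than on any array. For tip against mesenchyme the brightest probe set gave 7.74, 1456934_at 5.43, 1448738_at 5.96, 1458836_at 0.48 and the mean of the 4 probe sets 4.90. In the same order of the alternatives, stalk against mesenchyme gave 3.88, 4.46, -0.0047 and 3.74, so its sign turned in 1458836_at, and tip against stalk gave 1.55, 1.5, 0.48 and 1.16. mIMCD-3 against bud gave -5.31, -5.31, -0.72 and -5.26, and mIMCD-3 against mesenchyme -0.66, -0.10, -0.48 and -0.94. The cause was not tested. Less the receptor median of each array, tip against stalk was 0.93 and mIMCD-3 against bud -9.65; centred on array medians, the second was -9.55. A floor at the receptors' 95th percentile, chosen after seeing the data, gave -7.64 for mIMCD-3 against bud and -0.63 for mIMCD-3 against mesenchyme; the floored values of the other Calb1 probe sets, Ret, Gata3 and Lhx1 in the report were added likewise. Within replicate numbers (the block), the 3 tissue differences of Calb1 were 7.74, 6.62 and 1.12, as without it, since the design is balanced. Leaving out 1 array kept tip against mesenchyme between 7.39 and 8.08, stalk against mesenchyme between 6.27 and 6.97, tip against stalk between 1.09 and 1.14, mIMCD-3 against bud between -9.73 and -9.70 and mIMCD-3 against mesenchyme between -2.88 and -2.19. Of the 8 nearest genes, 2 were shared with the tissue arrays alone, 2 by Pearson correlation, 5 with 1448738_at as the pattern and 0 with 1458836_at.

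Under the replicate block, genes called higher and lower were 2037 and 2331 for tip against mesenchyme (calcium genes lower 11), 1231 and 577 for stalk against mesenchyme (calcium genes 8 and 3), and 1623 and 2131 for tip against stalk (calcium genes 4 and 8). With trend and robust variance, stalk against mesenchyme had 354 lower (calcium genes 7 higher and 0 lower) and tip against stalk 890 higher (calcium genes 3 higher). Wnk4, the calcium gene lower in stalk, was also not called with all probe sets in the fit or with centred arrays (0 in each). Without the dimmest 40% of genes, 2 calcium genes were higher in tip than in stalk. Leaving out 1 array gave 987 (without mesenchyme replicate 1) to 1927 genes lower in tip than in mesenchyme. For stalk against mesenchyme it gave 427 to 922 higher, lowest without either stalk array or mesenchyme replicate 2, 92 to 316 lower, lowest without any 1 of its 4 arrays, and 0 to 1 calcium genes lower. For tip against stalk it gave 197 to 769 higher and 724 to 1789 lower, lowest without either stalk array, and 1 to 4 calcium genes higher, with 4 without tip replicate 1. Fewer arrays by construction leave less precision. A group left with 1 array is assumed to vary like the others.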

Other observations

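In mIMCD-3, calcium genes other than Calb1 lay on both sides of the bud. Of the 60 measured, 8 were at least 1 log2 unit higher in the single mIMCD-3 array than in the bud and 9 at least 1 lower, where 9.75% and 9.33% of all genes were. The genes below were chosen after their values were seen. S100a1, which encodes a small EF-hand protein, read 9.51 in mIMCD-3, 6.59 and 6.74 in tip, 6.67 and 6.78 in stalk, and 6.45 and 6.76 in mesenchyme. The cell line was 2.81 above the bud mean, and the tissues overlapped. Rcn1, the gene of an EF-hand protein of the endoplasmic reticulum, read 3.40 in mIMCD-3, 10.54 and 10.44 in tip, 10.94 and 10.83 in stalk, and 10.56 and 10.63 in mesenchyme. It differed from the bud mean by -7.29 in mIMCD-3, and lay below the 95th percentile of the receptor probe sets there. Unlike Calb1, it was about equally bright in all 3 tissues. Wnk4 read 8.13 in mIMCD-3, against a mean of 5.81 in tip and 6.11 in stalk, and S100a10 read 10.52 in mIMCD-3, against 7.25 in tip and 9.83 in stalk.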
